A study of Homo sapiens with 2 samples.

Results

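DNA replication genes are the part of the transcriptome described here, namely 50 human genes that encode the replicative helicase and the factors that load and fire it, the sliding clamp and its loader, the replicative polymerases, nucleotide-supplying enzymes, fork protection factors and E2F transcription factors. They were chosen by name out of 19775 genes that the array reads through probe sets of their own. All 50 were measured, and 91 of their 94 probe sets were bright enough to be used. The cells were MEG-01, a megakaryoblastic line from chronic myeloid leukaemia that carries BCR-ABL. In the GAS2DN sample they carried a lentivirus whose spleen focus forming virus promoter drove GAS2DN, a truncated and dominant negative form of the growth arrest protein GAS2, and in the Venus sample a control lentivirus that carried only the yellow fluorescent marker Venus. Transduced cells of both kinds were sorted by fluorescence, and RNA from 3 independent extracts per condition was pooled in equal amounts and hybridised, once for each kind of cell, to an Affymetrix Human Genome U133 Plus 2.0 array. The question was which genes had a different expression once GAS2DN was present in these cells.

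Replication in human cells starts with the origin recognition complex, on which CDC6 and CDT1 load the ring-shaped MCM helicase in G1. Kinases then convert it, with CDC45 and the GINS complex, into the moving helicase of S phase. Polymerase alpha and primase lay down primers, the clamp loader RFC places the clamp PCNA, and polymerases delta and epsilon extend the strands. Many of these genes are transcribed at the G1/S border through E2F factors, so their RNA is high in dividing cell lines such as leukaemia lines.

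A signal is the linear MAS5 value of a probe set, and a log2 ratio is the GAS2DN value minus the Venus value on the log2 scale. Eligible probe sets were those whose brighter signal reached the array median, 69.1 for the GAS2DN and 55.6 for the Venus array. The brightest probe set of each gene served as its main one, and those ending in _x_at, which can bind related transcripts, were set last. As each condition had 1 array, the differences have no replicate check, no test was made, and the precision is limited by the number of arrays. Several probe sets of 1 gene repeat the measurement on the same RNA, not the condition. In bulk RNA, fewer cells of a type and less RNA per cell cannot be told apart.
The megakaryocyte label was checked against 14 markers, of which 12 had a probe set and 10 an eligible main one. Of these 10, 8 were higher in GAS2DN cells, where 56.2% of all measured genes were. Their median log2 ratio was 0.17, beside 0.06 over all measured genes. The highest were ITGB3, the platelet integrin beta chain, with 162 in GAS2DN and 88.5 in Venus cells, and TUBB1, a platelet tubulin, with 466 and 304. The other eligible probe sets of ITGB3 had log2 ratios of 0.06 and 1.77, the latter with a Venus signal of 29.8, below the array median. Lower were FLI1, a transcription factor of the lineage, with 6806 in GAS2DN and 10408 in Venus cells, a log2 ratio of -0.61, and GATA1, another one, with 1516 and 1617. The other eligible probe sets of FLI1 ran from -0.68 to -0.002, and that of GATA1 had 0.07. ITGA2B, the platelet integrin alpha chain, had 9238 in GAS2DN and 7149 in Venus cells. The platelet chemokine genes PF4 and PPBP lay below the array median on both arrays. Of 13 markers of lymphoid, myeloid, stromal and epithelial cells with a probe set, 5 had an eligible main probe set, with signals from 71.1 to 259 in GAS2DN and from 41.0 to 275 in Venus cells. Of the 5, 4 were higher in GAS2DN cells, where 56.2% of all measured genes were. Among these 4, COL1A2 and MS4A1 had Venus signals of 41.0 and 47.2, below the array median, and were eligible through the GAS2DN signal alone. The highest log2 ratios were those of COL1A2 at 1.44 and KRT8 at 0.80 and the lowest those of LYZ at -0.09 and CD79A at 0.22. The part of these markers in the results was not tested. GAS2 itself had 34.7 in GAS2DN and 24.3 in Venus cells in its only probe set, below the median on both arrays and so not eligible. The place of that probe set relative to the truncated part is not given in the sources used here.

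The stretches before the starts of 5 members are shown because E2F factors bind such letters and because these genes, E2F3 apart, had the widest differences of their groups, while E2F3 was higher in both of its probe sets. The 250 bases before the RefSeq gene start are given on the strand of the gene, GRCh38.p14, 5′ to 3′, with each match to an E2F motif in capitals. The motif was searched on both strands as TTTCCCGC, TTTCGCGC, TTTGCCGC or TTTGGCGC.
E2F1, chr20:33686386-33686635, minus strand: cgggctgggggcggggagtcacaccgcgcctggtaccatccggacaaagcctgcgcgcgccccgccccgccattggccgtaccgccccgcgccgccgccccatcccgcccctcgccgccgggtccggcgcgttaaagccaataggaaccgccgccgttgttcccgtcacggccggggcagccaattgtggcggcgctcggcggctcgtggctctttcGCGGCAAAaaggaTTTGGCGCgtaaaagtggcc
E2F3, chr6:20401629-20401878, plus strand: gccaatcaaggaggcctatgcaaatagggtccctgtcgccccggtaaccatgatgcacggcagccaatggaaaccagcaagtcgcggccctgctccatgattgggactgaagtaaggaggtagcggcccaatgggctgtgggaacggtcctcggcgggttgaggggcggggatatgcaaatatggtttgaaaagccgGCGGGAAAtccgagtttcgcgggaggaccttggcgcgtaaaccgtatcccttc
MCM6, chr2:135876444-135876693, minus strand: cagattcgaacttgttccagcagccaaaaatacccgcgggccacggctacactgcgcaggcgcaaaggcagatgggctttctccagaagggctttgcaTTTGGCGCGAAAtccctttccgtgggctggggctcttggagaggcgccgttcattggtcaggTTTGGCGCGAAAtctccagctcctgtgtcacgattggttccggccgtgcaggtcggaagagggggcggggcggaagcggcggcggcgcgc
CLSPN, chr1:35769979-35770228, minus strand: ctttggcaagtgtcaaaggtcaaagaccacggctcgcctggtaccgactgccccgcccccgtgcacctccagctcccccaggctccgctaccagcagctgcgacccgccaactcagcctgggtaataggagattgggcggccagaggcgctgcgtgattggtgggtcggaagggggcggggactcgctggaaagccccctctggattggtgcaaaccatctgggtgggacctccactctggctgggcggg
RFC5, chr12:118016453-118016702, plus strand: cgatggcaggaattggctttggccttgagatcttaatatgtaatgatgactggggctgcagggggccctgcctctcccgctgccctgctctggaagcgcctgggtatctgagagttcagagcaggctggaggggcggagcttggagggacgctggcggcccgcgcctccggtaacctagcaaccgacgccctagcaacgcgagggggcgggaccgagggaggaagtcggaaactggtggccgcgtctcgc
MCM6 held 4 matches in 2 places, where matches on opposite strands overlap, E2F1 held 2 and E2F3 held 1, while the letters searched were not in the windows of CLSPN and RFC5.

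The replication genes as a whole had nearly equal signals in GAS2DN and Venus cells by their main probe sets. By the next eligible probe set, read in 28 of them, the median log2 ratio was -0.32, beside 0.02 over all genes with one. By main probe sets 21 of the 50 were higher and 29 lower in GAS2DN cells, where 56.2% of all 13086 measured genes were higher and 43.8% lower. The median log2 ratio of the 50 was -0.06, with a range of -0.61 to 0.84, beside a median of 0.06 over all measured genes. The median of those replication genes that could be read was below that of all genes under each of the other settings tried, which read all 50 except with the next probe set (28), without _s_at and _x_at probe sets (39) and with the strictest filter (49). The log2 ratio lay between -0.32 and 0.32 in 43 of the 50, where it did in 57.8% of all measured genes. Over 1.5-fold, E2F1 alone was higher and CLSPN alone was lower, where 14.3% of all measured genes were over 1.5-fold higher and 9.12% lower. Both calls rest on main probe sets that other probe sets of the same gene oppose.
Brightness moved with these counts. When measured genes were split by mean signal into 10 equal classes, the main probe sets of 35 of the 50 fell into the 3 brightest, where 3.87% of all genes were over 1.5-fold in either direction. Of these 35, 0 were, and their median was -0.04, beside 0.03 over the 3926 genes of those classes. Their log2 ratio lay between -0.32 and 0.32 in 32 of the 35, where it did in 82.3% of those 3926 genes. The part of brightness in the narrow spread of the replication genes was not tested further.

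**Figure D1:**
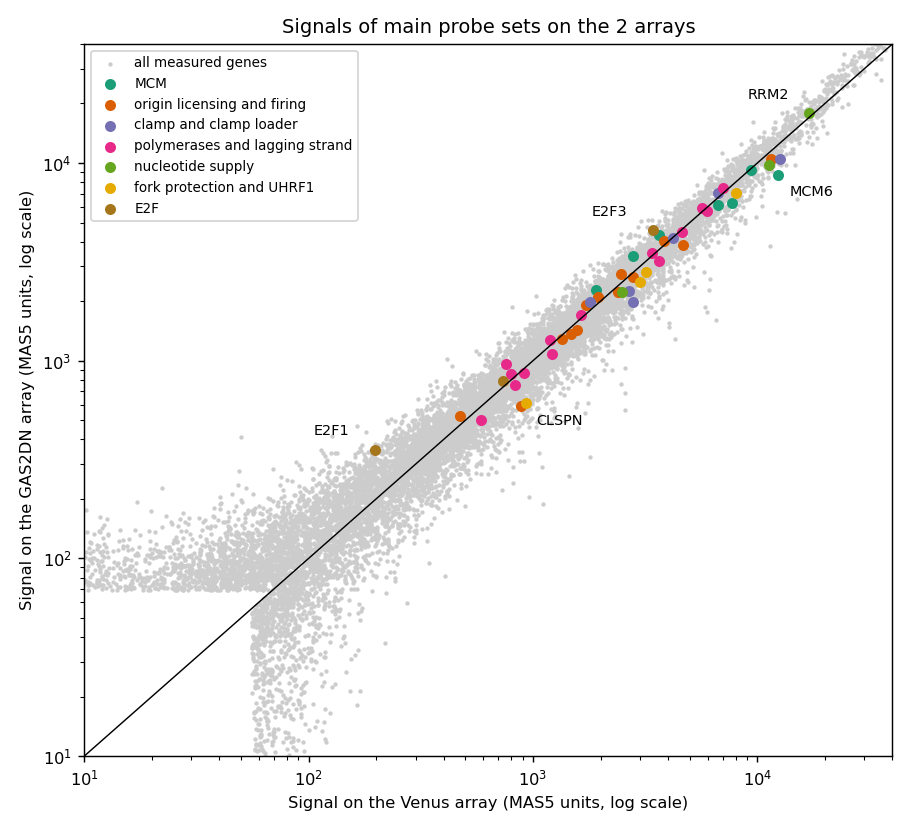
Signals of main probe sets on the GAS2DN array (vertical axis, log scale) and the Venus array (horizontal axis, log scale), with all measured genes in grey, the 50 replication genes coloured by group the line of equal signals in black and both axes starting at a signal of 10. The replication genes lie among bright probe sets along that line, with E2F1 above it and CLSPN and MCM6 below it.

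With 3-fold as the size, which is the one the study used, no replication gene had an eligible probe set over it in the higher direction and 1 had one in the lower direction, where 8.69% and 6.09% of all genes did. This was GINS2, a GINS subunit, whose probe set 1557595_at had 14.8 in GAS2DN and 121 in Venus cells. Its main probe set had 2739 in GAS2DN and 2467 in Venus cells and its other one 85.3 and 78.1, log2 ratios of 0.15 and 0.13, so the fold of 1557595_at rests on a GAS2DN signal below the array median.

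The MCM group had a median of -0.02, with 3 of 7 genes higher. MCM6, a subunit of the helicase ring, was the lowest of the group and lower in both of its probe sets. In 201930_at it had 8736 in GAS2DN and 12406 in Venus cells, a log2 ratio of -0.51, and in 238977_at 211 and 548, a log2 ratio of -1.38. By main probe sets the other ring subunits did not share that size. MCM2 and MCM3, each read by 1 probe set, had -0.13 and -0.02, and the 4 eligible probe sets of MCM4 spanned -0.47 to 0.01 around a main value of -0.29.
MCM5 was the highest of the group by main probe set, with 3377 in GAS2DN and 2803 in Venus cells, a log2 ratio of 0.27, but its other probe set had 571 and 721, a log2 ratio of -0.34. MCM7 was split in the same way, with 0.25 in 208795_s_at and -0.33 in 210983_s_at.
MCM10, which is no ring subunit but helps to activate the helicase, had 2284 in GAS2DN and 1916 in Venus cells in its main probe set, a log2 ratio of 0.25. Its other probe sets, 220651_s_at and 222962_s_at, had 1691 and 1253 in GAS2DN against 2348 and 2353 in Venus cells, log2 ratios of -0.47 and -0.91. For MCM5, MCM7 and MCM10 the direction thus depended on the probe set read.

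Genes of origin licensing and firing had a median of -0.07, with 5 of 13 higher and main values from -0.58 to 0.15. Of the origin recognition subunits, ORC2 had -0.06 and -0.15 in its probe sets and ORC3 -0.10. ORC5 had 2095 in GAS2DN and 1939.8 in Venus cells in its main probe set, a log2 ratio of 0.11, and 399 and 636 in 211212_s_at, a log2 ratio of -0.67.
CDC6, the ATPase that loads the helicase with CDT1, was highest of the group by main probe set with 1912 in GAS2DN and 1719.6 in Venus cells, a log2 ratio of 0.15, and had -0.36 in its other probe set. CDT1 had 525 in GAS2DN and 473 in Venus cells in its main probe set, a log2 ratio of 0.15. Its other probe set, 228868_x_at, had 1855 in GAS2DN and 3118 in Venus cells, a log2 ratio of -0.75. GMNN, which encodes geminin, the inhibitor of CDT1, had 10449 in GAS2DN and 11549.7 in Venus cells, a log2 ratio of -0.14.
CDC7 and DBF4, the catalytic and activating subunits of the kinase that fires origins, had -0.07 and 0.08, and CDC45 had -0.12.
Among the GINS subunits, GINS3 was the lowest main value of the group with 589 in GAS2DN and 881 in Venus cells, a log2 ratio of -0.58, but 218719_s_at had 621 and 563, a log2 ratio of 0.14. GINS4 had 1363 in GAS2DN and 1483 in Venus cells in its main probe set, a log2 ratio of -0.12, and its other probe sets ran from -1.07 in 235029_at, with 187 and 392, to 0.78 in 240778_at, with 97.8 and 56.7. GINS1, read by 1 probe set, had 3838 in GAS2DN and 4678 in Venus cells, a log2 ratio of -0.29. No GINS subunit read by several probe sets had all of them on the same side of equal signals.

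The clamp and its loader had a median of -0.14, with 2 of 6 genes higher. PCNA, the clamp, had 10472 in GAS2DN and 12659 in Venus cells, a log2 ratio of -0.27 in its only probe set.
RFC5, a small subunit of the loader, was the lowest of the group. It had 1970.1 in GAS2DN and 2782 in Venus cells in 203209_at, 655 and 1001 in 213734_at, and 765 and 794 in 203210_s_at. The log2 ratios were -0.50, -0.61 and -0.05, all below 0 but of unequal size. RFC2 was lower in both of its probe sets, with log2 ratios of -0.25 and -0.52, while RFC3 stayed between -0.02 and 0.06 in its 3 probe sets and RFC4 had 0.07.
RFC1, the large subunit, was the highest of the group by main probe set with 1980.5 in GAS2DN and 1796 in Venus cells, a log2 ratio of 0.14. It had -0.18 in 209085_x_at and 0.78 in 208133_at, whose signals were 74.7 in GAS2DN and 43.3 in Venus cells. The ratio of 208133_at rests on a Venus signal below the array median.

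Polymerases and lagging strand genes had a median of -0.004 by main probe sets, which became 0.02 after quantile normalization of the arrays and -0.06 after centring on all measured genes, and 7 of 14 were higher. Main values ran from -0.23 for PRIM2 to 0.34 for POLE.
POLE, the catalytic subunit of the leading strand polymerase epsilon, had 958 in GAS2DN and 758 in Venus cells, and PRIM2, the large primase subunit, had 499.8 in GAS2DN and 585 in Venus cells, each in 1 probe set. POLE2, the partner of POLE, had -0.19.
In polymerase alpha, POLA1, the catalytic subunit, had 0.10, and POLA2, its regulatory subunit, was lower in each of its 3 probe sets. These had 751, 164 and 59.2 in GAS2DN against 829.6, 238 and 110.5 in Venus cells, log2 ratios of -0.14, -0.54 and -0.90, a common direction with unequal sizes. The last of these ratios, in 244575_at, rests on a GAS2DN signal below the array median.
The polymerase delta subunits POLD1, POLD2 and POLD3 had main values of 0.06, 0.10 and -0.07, of which that of POLD1 turned to just below 0 after centring. The single-strand binding proteins RPA1, RPA2 and RPA3 had 0.07, -0.04 and 0.04, of which that of RPA3 turned to -0.02 after centring, and all 3 probe sets of RPA1 were above 0. FEN1, the flap nuclease that trims Okazaki fragments, had 0.09 and -0.01, and LIG1, the ligase that joins them, -0.16.

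The nucleotide supply genes had a median of -0.16, with 1 of 3 higher. RRM1, the large subunit of ribonucleotide reductase, had 9765 in GAS2DN and 11254 in Venus cells, a log2 ratio of -0.20, and -0.12 in its other probe set. RRM2, the small subunit, had 17828 in GAS2DN and 16976 in Venus cells in its main probe set. Its log2 ratios were 0.07 and -0.01, and the first turned to -0.01 after quantile normalization and to -0.02 after loess. TK1, the thymidine salvage kinase of S phase, had 2219.7 in GAS2DN and 2482 in Venus cells in its main probe set, a log2 ratio of -0.16, and -0.31 in the other.

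All 4 genes of fork protection with UHRF1 were lower by main probe set, with a median of -0.23. CLSPN, which encodes claspin, the adaptor of the replication checkpoint kinase, had 609.7 in GAS2DN and 929 in Venus cells in 243840_at, a log2 ratio of -0.61, the lowest main value of the 50. Its other probe sets had 279, 147 and 131 in GAS2DN against 209, 185 and 88.0 in Venus cells, log2 ratios of 0.42, -0.34 and 0.58. CLSPN was thus lower in 2 of its probe sets and higher in the other 2.
TIMELESS and TIPIN, which bind each other at the fork, had 2500.5 and 2796 in GAS2DN against 2991 and 3204 in Venus cells, log2 ratios of -0.26 and -0.20, and the second probe set of TIMELESS had -0.55. UHRF1, the reader of hemimethylated DNA that recruits the maintenance methyltransferase, had 7076 in GAS2DN and 7999 in Venus cells, a log2 ratio of -0.18. It was the highest value of these 4.

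The E2F genes were all higher by main probe set, with a median of 0.40, but only E2F3 was higher in each of its probe sets. E2F3 had 4557 in GAS2DN and 3442 in Venus cells in 203693_s_at and 492 and 269 in 203692_s_at, log2 ratios of 0.40 and 0.87.
E2F1 had 355 in GAS2DN and 198 in Venus cells in 204947_at, a log2 ratio of 0.84 and the highest main value of the 50. In 2028_s_at it had 113 in GAS2DN and 223 in Venus cells, a log2 ratio of -0.98, so its probe sets gave opposite directions of similar size.
E2F2 had 792 in GAS2DN and 737 in Venus cells in its main probe set, a log2 ratio of 0.10, and 27.3 and 76.4 in 235582_at, a log2 ratio of -1.49 that rests on a GAS2DN signal below the array median. With the median over eligible probe sets, the median of the E2F genes was -0.07.

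**Figure D2:**
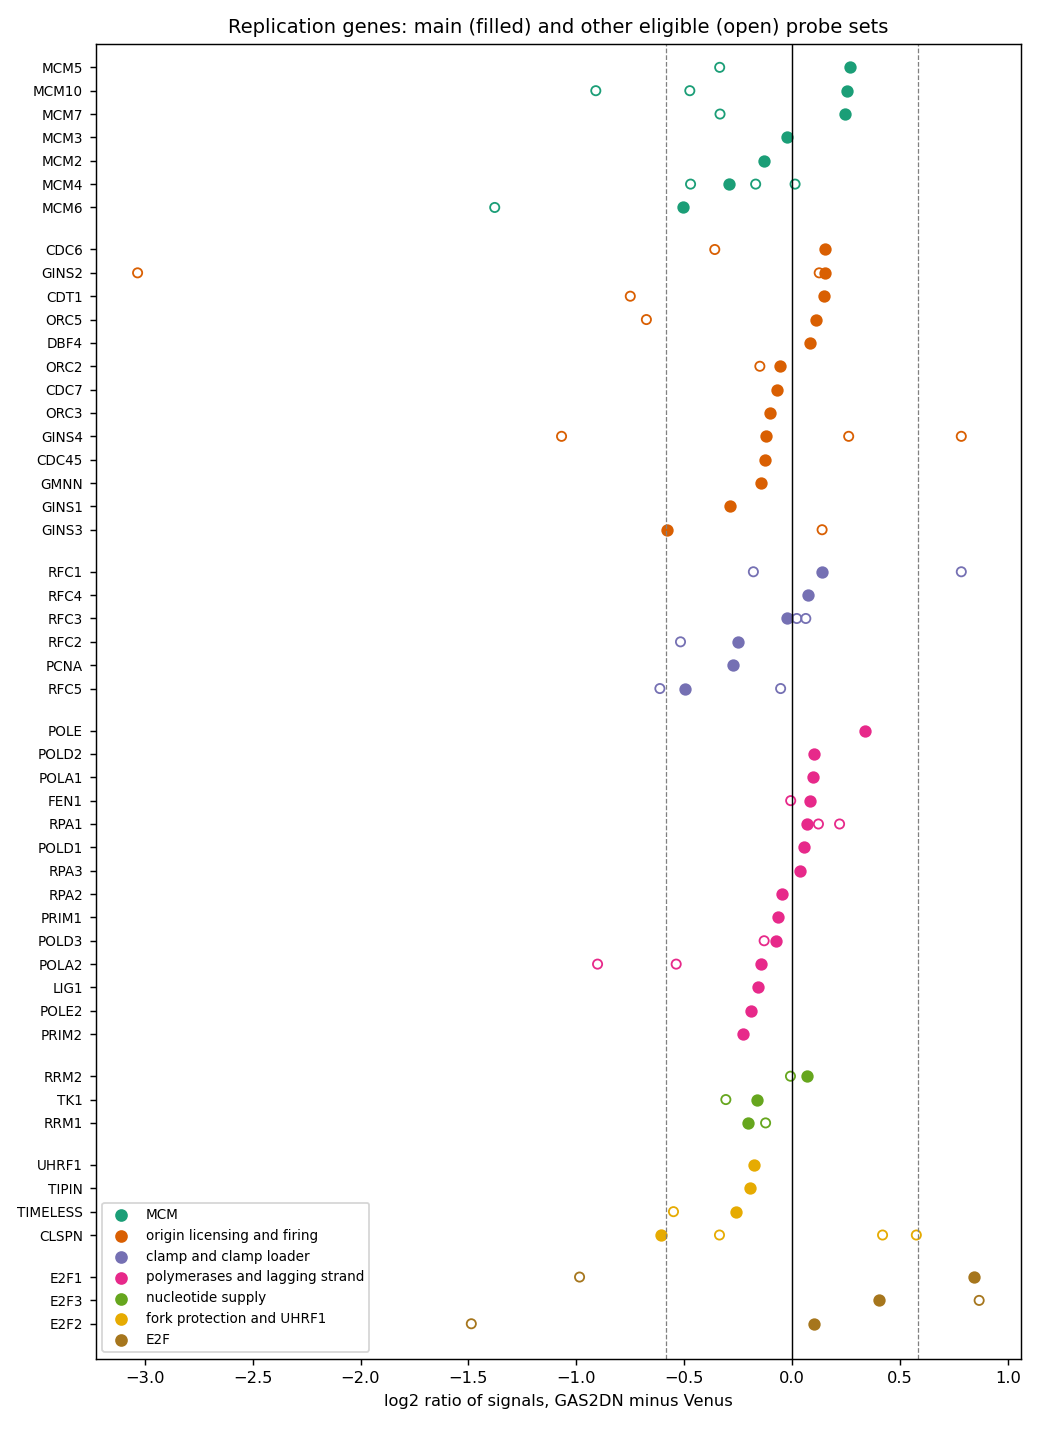
Log2 ratio of GAS2DN to Venus signals (horizontal axis) for every eligible probe set of the 50 replication genes, one gene per row and coloured by group, with main probe sets filled, other probe sets open, the line of equal signals solid and 1.5-fold dashed. Filled points gather between -0.61 and 0.84, and open points reach down to -3.03 in GINS2 and up to 0.87 in E2F3.

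**Figure D3:**
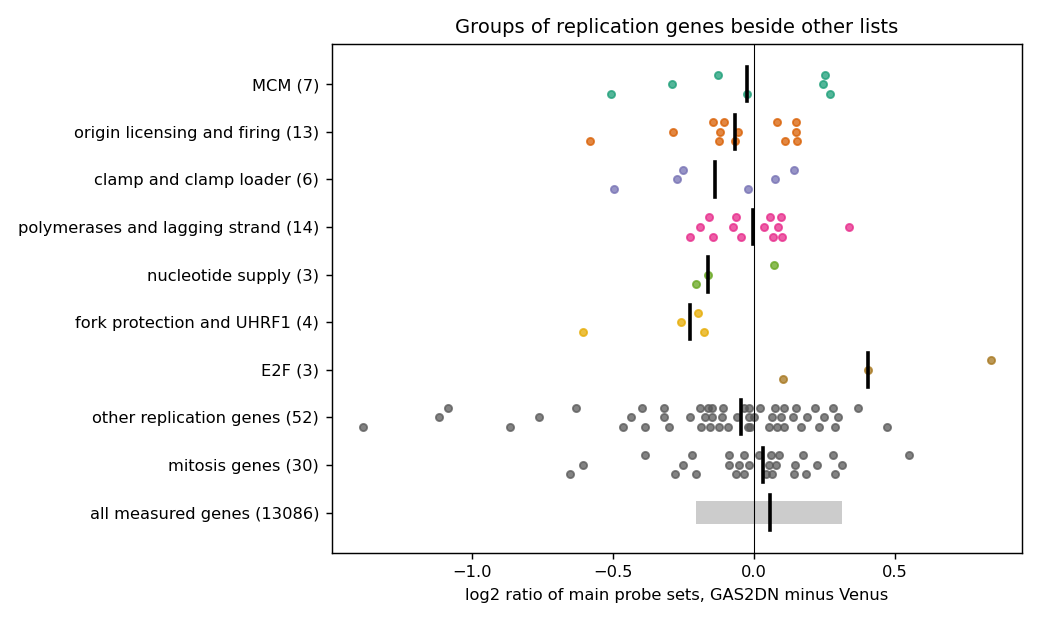
Log2 ratio of main probe sets (horizontal axis) for the 7 groups of replication genes, 52 other replication genes and 30 mitosis genes, with 1 point per gene and the median as a black bar, and the number of genes in brackets. The grey bar spans the middle of all 13086 measured genes, from the 25th to the 75th percentile at -0.20 and 0.31, and the medians of 6 groups lie left of 0 and that of the E2F genes right of it.

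At least 2 eligible probe sets were present in 28 replication genes. In 9 of these 28 every eligible probe set was below 0 and in 2 every one was above 0, where 17.5% and 21.9% of 6422 genes of that kind in the whole table did so. In the other 17 they lay on both sides, where 60.6% of those genes did. The 9 were MCM6, ORC2, RFC2, RFC5, POLA2, POLD3, RRM1, TK1 and TIMELESS, and the 2 were RPA1 and E2F3. In POLA2, probe set 244575_at had a GAS2DN signal below the array median.
By the next eligible probe set after the main one, 20 of the 28 were below 0, where 48.3% of genes were. Over 1.5-fold, 7 were lower and 2 higher, where 13% and 14.3% of genes were. The median of the 28 was -0.32 by the next probe set and 0.02 by the main one, beside 0.02 and 0.03 over all genes with such probe sets. The 7 lower ones were MCM6, ORC5, CDT1, GINS4, RFC5, E2F1 and E2F2, and the 2 higher ones RFC1 and E2F3.
The pooled SD of the log2 ratio between eligible probe sets of 1 gene was 0.63 in the replication genes and 0.83 in all genes. By brightness, this SD over all genes was 0.42 to 0.60 at the signals of the 50 main probe sets. The main values of 5 genes, E2F1, CLSPN, GINS3, MCM6 and RFC5, were larger in size than the SD at their brightness, and the other 45 were not. RFC5 passed it narrowly, with -0.50 against an SD of 0.49. Other eligible probe sets of E2F1 (-0.98), GINS3 (0.14) and CLSPN (0.42 and 0.58) lay on the side opposite to the main one. A further one of CLSPN (-0.34) and those of MCM6 and RFC5 lay on the same side as the main one. The share of all genes past it is not given here, so the count cannot be set against one. This SD is between probe sets on the same RNA and gives no error between conditions.

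**Figure D4:**
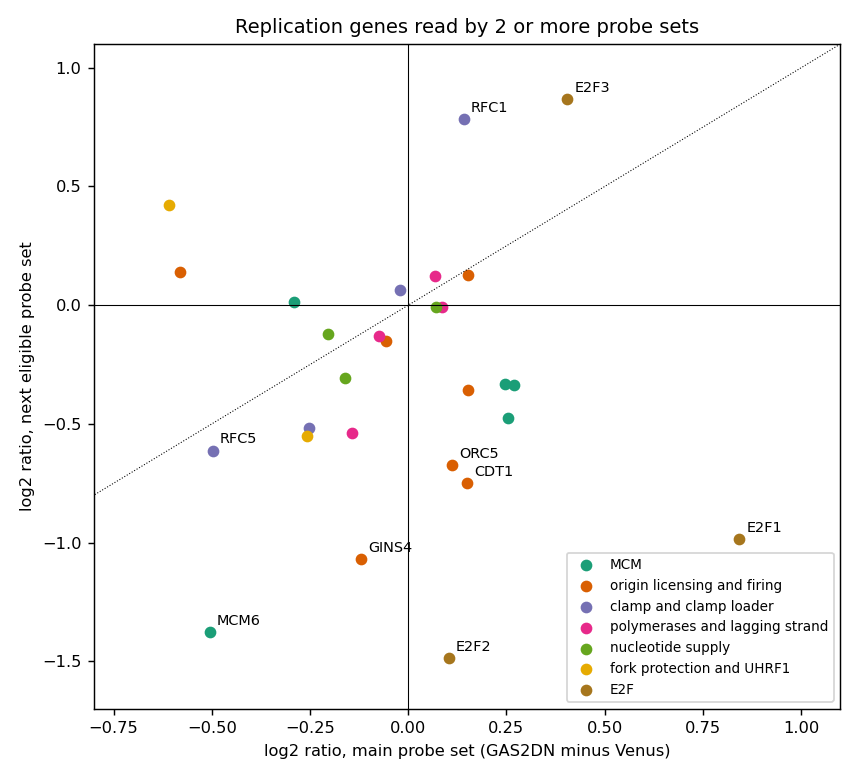
Log2 ratio of the next eligible probe set (vertical axis) against that of the main probe set (horizontal axis) for the 28 replication genes with at least 2 eligible probe sets, coloured by group, with names where the next probe set is over 1.5-fold and equal ratios dotted. Of the 28 points 20 lie below 0 on the vertical axis, and E2F1 stands at 0.84 by its main and -0.98 by its next probe set.

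Promoters were matched by symbol for 44 of the 50 genes, and MCM4, MCM5, GINS4, POLD3, RPA2 and RPA3 had no entry. The E2F letters were in the 250 bases before the start of 16 of the 44 genes, and in 2.79% of 27305 promoters of the same length. The median log2 ratio was 0.04 in the 16 genes with a match, with 8 of them higher, and -0.10 in the 28 without one, with 11 higher. The ranges overlapped over most of their length, from -0.51 in MCM6 to 0.84 in E2F1 with a match and from -0.61 in CLSPN to 0.25 in MCM10 without one. A match describes letters only and not a bound site.

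**Figure D5:**
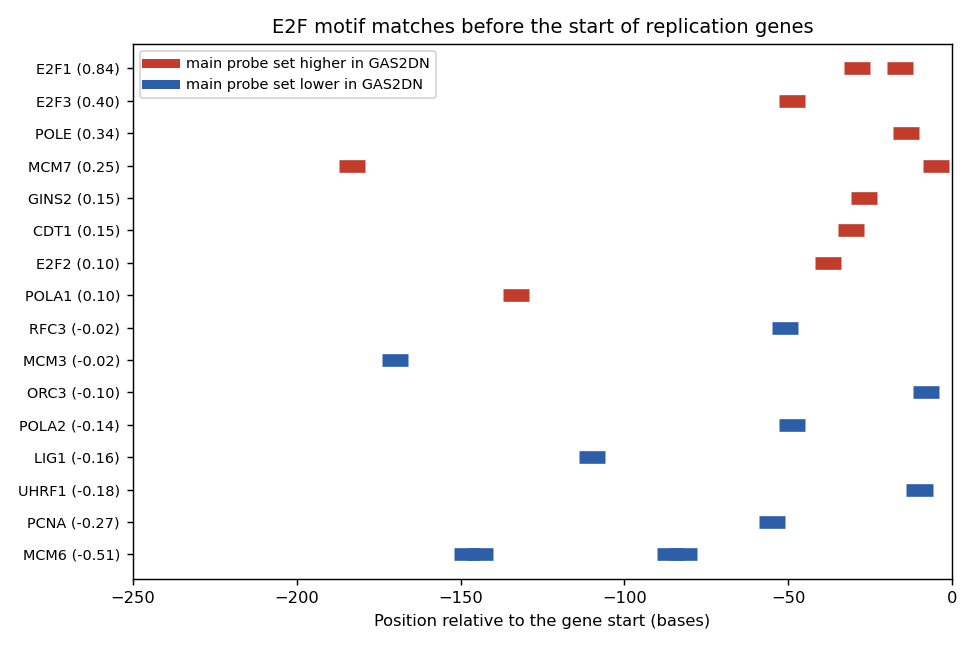
Positions of E2F motif matches relative to the gene start (horizontal axis, in bases) in the 16 replication genes that hold one, ordered from the highest to the lowest log2 ratio of the main probe set, which stands in brackets. Genes with a higher (red) and a lower (blue) main value in GAS2DN cells are 8 each, and matches lie at 13 to 33 bases before the start in E2F1 and 79 to 152 in MCM6.

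Of 52 other measured genes of the replication pathway 21 were higher, with a median of -0.05 and a range of -1.39 to 0.47. Over 1.5-fold, 6 were lower and 0 higher, where 9.12% and 14.3% of all measured genes were. The lowest were DCK, the deoxycytidine salvage kinase, with 1547 in GAS2DN and 4044 in Venus cells, a log2 ratio of -1.39, and DNMT1, the maintenance DNA methyltransferase, with 5639 and 12248, a log2 ratio of -1.12. Each was read by 1 probe set. WDHD1, a replisome factor that links polymerase alpha to the helicase, was named after its values were seen, and its 3 probe sets had -1.09, -0.55 and -0.87.
The highest were E2F4, a repressor of the E2F family, with 457 in GAS2DN and 329.5 in Venus cells, a log2 ratio of 0.47, and 0.82 in its other eligible probe set, and E2F5 with 954 and 739, a log2 ratio of 0.37.
Mitosis genes had a median of 0.03 over 30 genes, which turned to -0.02 after centring, with 16 higher, 2 over 1.5-fold lower and 0 higher. MAD2L1, a spindle checkpoint protein, had -0.65, 0.01 and -0.54 in its probe sets and INCENP, a scaffold of the Aurora B complex, -0.61, while UBE2C, a ubiquitin carrier of mitotic exit, had 0.55 and the kinase PLK1 0.31. The difference between the medians of the 2 lists cannot be tested with 1 array per condition.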

How the data were processed

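The authors deposited log2 values of MAS5 signals, and the submitters' processing notes name MAS5 without a version. On the linear scale both arrays had a 2% trimmed mean of 500.1. No detection calls were used here. Of 54675 probe sets 62 controls were left out, and 41091 of the others were assigned to 1 gene by the platform's table, 1801 to several and 11721 to none. Only those with 1 gene were used, with symbols updated through the gene identifier in 41037. Eligible were 30304 probe sets, and the main probe set was eligible in 13086 genes, called measured.

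The members, groups, lists and sizes were chosen with earlier results of these data known. Signals are given for members whose main probe set was over 1.5-fold, whose eligible probe sets were all over 1.25-fold on the same side or on opposite sides with 1 over 1.5-fold, and for the highest and lowest of each group. Further members serve as examples and were picked with their values in view. Of the other lists the 2 highest and 2 lowest genes are named. Alternatives changed the filter, the scaling (centring on the median of measured genes, quantile normalization, or loess, whose span was 0.2 with 3 iterations), the choice of probe set and the treatment of low signals. The computation was tested on simulated data with known ratios. Software was matplotlib 3.10.9, statsmodels 0.14.6, scipy 1.17.1, pandas 2.3.3, numpy 2.4.6 and Python 3.11.15. Promoter sequences are from RefSeq, GRCh38.p14.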

Additional observations from a re-analysis of the deposited data

How the results depend on the processing

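The median of the replication genes read stayed below 0 under all 12 alternatives. Under those that gave a value for the gene, the sign was kept in 33 of 50 genes, 24 lower and 9 higher, but 20 of the 33 have 1 eligible probe set and so no next one, and of the 28 genes with at least 2 the sign changed in 15. The largest changes came with the choice of probe set. With the next eligible probe set the median was -0.32 over 28 genes, 7 were over 1.5-fold lower and 2 higher, 0 were over 3-fold lower, and the medians were -0.36 for origin licensing and firing, -0.065 for fork protection with UHRF1, -0.98 for E2F and 0.092 for mitosis genes. By that probe set 13.0% of all genes were over 1.5-fold lower and 14.3% higher. CLSPN had 0.42 and E2F1 -0.98 by the next eligible probe set, and with the median over eligible probe sets 0.042 and -0.071. That median gave -0.071 for E2F, with 2 replication genes over 1.5-fold lower, where 9.70% of all genes were, and 0 over 3-fold lower. With _s_at and _x_at probe sets left out, 2 of 39 genes were over 1.5-fold higher, where 16.3% of all genes were. Another alternative, chosen after seeing the data, used the brightest probe set also where it ends in _x_at. With it 2 were over 1.5-fold lower, the second being CDT1, where 9.0% of all genes were.
With a filter at percentile 75 of the brighter signal 0 of 49 genes were over 1.5-fold higher, since E2F1 lay below it, and 0 over 3-fold lower. Of all genes read with that filter, 2.84% were over 1.5-fold higher. For 3-fold counts under the alternatives, the shares of all genes are not given here. The count of replication genes over 3-fold lower was also 0 when the dimmer signal too had to reach the median, when the array median was added to each signal and when low signals were raised to it, and 2 after loess and after quantile normalization. Without a filter 2 genes, MCM4 and ORC5, had a probe set over 3-fold higher, whose signals were below the median on both arrays. Genes over 1.5-fold lower were 2 after centring and 0 after quantile normalization and with the array median added. After centring the median of nucleotide supply genes was -0.22. The causes were not tested. No paired analysis was possible because each condition had 1 array.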

Other observations

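CCAAT, searched on both strands as the letters of the box bound by NF-Y, was in the 250 bases before the start of 26 of 44 replication genes and in 33.0% of 27305 promoters of that length. The median log2 ratio was -0.04 in the 26 genes with a match, 12 of them higher, and -0.10 in the 18 without one, 7 of them higher.
Of the 94 probe sets of the replication genes 3 were not eligible. MCM4 had 23.3 in GAS2DN and 4.46 in Venus cells in 242479_s_at, ORC5 61.3 and 17.4 in 211213_at, and E2F2 32.3 and 44.6 in 207042_at.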
